A study of Homo sapiens with 4 samples.

Results

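The genes described here are the human WNT ligands, the Frizzled receptors and 4 further receptors that bind WNT proteins, LRP5, LRP6, ROR1 and ROR2, in the papillary thyroid carcinoma lines TPC-1 and B-CPAP. They were chosen by symbol among protein-coding genes, which gave 33 genes (19 ligands, 10 Frizzled receptors and the 4 others) of 58884 in the deposited table. The 4 libraries of RNA were TPC-1 at 40 °C, TPC-1 at 37 °C, B-CPAP at 40 °C and B-CPAP at 37 °C, with 1 library of each. Cells of either line were grown in flasks submerged at the stated temperature. The length of the exposure is given as 24 h in the treatment label, 15 min in the growth protocol and 20 min in the series design, so it is not settled here. No other agent or genetic change is named in the labels, and each line stands for 1 tumour. The estimated depth was 20704703 to 24466582 reads per library.

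WNT proteins are secreted, lipid-modified ligands. A WNT bound to a Frizzled receptor and to LRP5 or LRP6 stops the destruction complex from degrading beta-catenin, which then acts in the nucleus with TCF and LEF factors. Other WNTs act through Frizzled receptors with ROR1, ROR2, RYK or PTK7 on cell polarity and movement without beta-catenin. In the thyroid, WNT signalling through beta-catenin is best known from poorly differentiated and anaplastic carcinoma, where beta-catenin mutations occur.

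Levels are in TPM, a unit that divides reads by the length of the gene and by all reads of the library, so that levels can be set beside each other between genes. Of the markers of thyroid follicular cells, PAX8 stood at 98.9 to 284.4 TPM and FOXE1 at 5.95 to 9.70 TPM over the 4 libraries, whereas TG reached at most 0.746 TPM, TSHR reached 0.0135 TPM, and SLC5A5 was at 0. NKX2-1 was at 0 in both TPC-1 libraries, against 7.90 and 8.60 TPM in B-CPAP. The keratin genes KRT8 and KRT18 stood at 138.9 TPM or more in every library, and the epithelial cadherin gene CDH1 at 0.0439 TPM or less. The leukocyte gene PTPRC was at 0 throughout. The 5 fibroblast markers summed to 9.56 and 9.13 TPM in TPC-1 at 40 °C and 37 °C and to 36.0 and 29.9 TPM in B-CPAP, with LUM and DCN at 0 in TPC-1. DCN was at most 0.159 TPM in B-CPAP, and PDGFRB had 6.72 and 6.19 TPM in TPC-1, against 4.65 and 4.15 TPM in B-CPAP. Their part in the differences between the lines was not tested.

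Promoter sequence is shown for 4 members described below, WNT5A, the leading ligand of B-CPAP, LRP5, the leading co-receptor, and FZD1 and FZD8, a Frizzled receptor whose levels overlapped between the lines and one that differed. RefSeq (GRCh38.p14) promoters matched 24 of the 33 members by symbol, with 27 start sites in all, and the others were WNT7B, WNT10B, WNT11, FZD2, FZD3, FZD6, FZD7, FZD10 and LRP6. Each line gives the 250 bases before a start site, 5′ to 3′ on the gene's strand, and capitals mark the core letters CTTTGA or CTTTGT, searched on both strands, which TCF and LEF factors are known to bind.
WNT5A, chr3:55487307-55487556, minus strand: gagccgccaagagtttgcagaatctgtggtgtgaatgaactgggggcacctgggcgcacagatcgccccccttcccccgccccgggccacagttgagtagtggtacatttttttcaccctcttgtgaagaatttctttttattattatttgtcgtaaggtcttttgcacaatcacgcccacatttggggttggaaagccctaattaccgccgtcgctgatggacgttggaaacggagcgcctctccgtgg
WNT5A, chr3:55481399-55481648, minus strand: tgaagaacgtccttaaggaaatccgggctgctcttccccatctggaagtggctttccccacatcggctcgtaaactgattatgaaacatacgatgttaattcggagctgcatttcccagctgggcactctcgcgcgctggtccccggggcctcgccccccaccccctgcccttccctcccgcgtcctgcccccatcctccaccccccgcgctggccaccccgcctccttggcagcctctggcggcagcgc
FZD1, chr7:91264183-91264432, plus strand: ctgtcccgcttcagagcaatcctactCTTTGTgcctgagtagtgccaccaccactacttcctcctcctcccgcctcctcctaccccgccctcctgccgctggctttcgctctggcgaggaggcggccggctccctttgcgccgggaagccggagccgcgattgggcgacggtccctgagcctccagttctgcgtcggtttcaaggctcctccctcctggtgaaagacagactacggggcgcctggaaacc
FZD8, chr10:35642297-35642546, minus strand: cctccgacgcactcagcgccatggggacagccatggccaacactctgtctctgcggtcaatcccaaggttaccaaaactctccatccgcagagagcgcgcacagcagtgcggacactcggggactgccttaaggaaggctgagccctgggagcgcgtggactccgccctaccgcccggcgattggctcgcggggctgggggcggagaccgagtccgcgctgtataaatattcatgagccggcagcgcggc
LRP5, chr11:68312341-68312590, plus strand: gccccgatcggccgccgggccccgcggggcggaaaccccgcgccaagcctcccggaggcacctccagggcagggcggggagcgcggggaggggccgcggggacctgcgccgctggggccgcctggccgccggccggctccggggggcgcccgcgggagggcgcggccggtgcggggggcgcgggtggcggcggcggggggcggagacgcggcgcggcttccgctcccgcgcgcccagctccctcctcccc
The core was found before 3 of the 27 start sites of members, those of FZD1, ROR2 and WNT8B, and before 22.8% of the 35116 start sites in the table. Member promoters had a median GC content of 74.0%, against 58.0% for the whole table, and of those shown LRP5 had 87.2% with 43 CG pairs and the farther upstream start of WNT5A 52.8% with 14. A match is a run of letters and not a measured binding site.

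The ligands of TPC-1 were dominated by WNT7B, which B-CPAP hardly expressed. WNT7B (ENSG00000188064, chromosome 22, 45920362 to 45977129, minus strand, GRCh38) is best known for activating beta-catenin signalling in brain vessels, lung and skin. It stood at 138.0 TPM in TPC-1 at 40 °C and 168.3 TPM at 37 °C, and at 0.253 and 0.369 TPM in B-CPAP. These values rest on an estimated 4028 and 5141 reads in TPC-1 and 9 and 14 reads in B-CPAP. The TPM ratio of TPC-1 to B-CPAP was 545.1 at 40 °C (95% exact Clopper-Pearson interval 285.2 to 1186) and 455.7 at 37 °C (269.8 to 829.3). WNT7B was therefore the highest ligand of TPC-1 by far, and the ranges of the lines lay far apart. As in any bulk sample, fewer cells with the transcript and less of it per cell cannot be told apart. On the log2(TPM + 1) scale the difference was 6.87 ± 0.13 (SE, 2 libraries per line). WNT7B averaged under 1 TPM in B-CPAP and passed the filter on low values only through TPC-1, so it is given no test here. WNT7A, the closest paralogue, was at 0.0378 TPM in TPC-1 at 40 °C, from 1 read, and at 0 in the 3 other libraries.

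**Figure D1:**
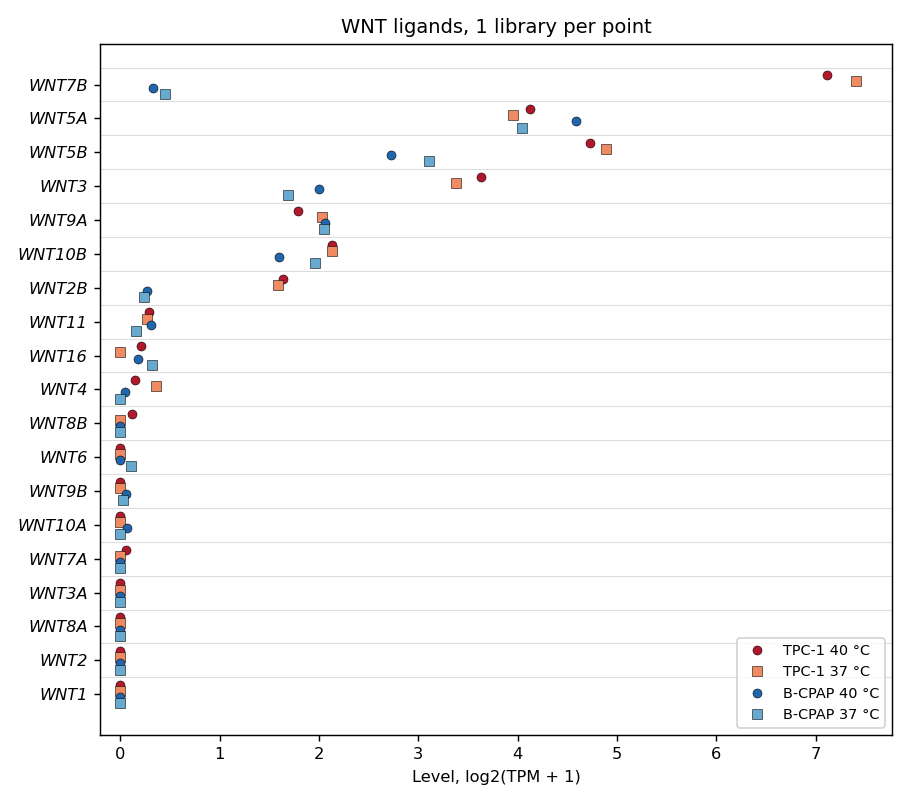
Level of each WNT ligand as log2(TPM + 1), with 1 point per library and ligands ordered by their mean. WNT7B lies above 7 on this scale in TPC-1 and below 1 in B-CPAP, and 12 ligands lie near 0 in every library.

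Beside WNT7B, 6 ligands had a mean of at least 1 TPM over the 4 libraries and entered the test. Members were read against all 14912 genes tested by limma between the lines, of which 62.7% passed an adjusted p of 0.05, 32.8% higher and 29.9% lower in TPC-1. Of the 18 members tested, 11 were higher and 1 lower in TPC-1, and 6 did not pass. Of the 11, WNT7B, WNT2B and FZD8 averaged under 1 TPM in B-CPAP and so passed the filter on low values only through TPC-1, where they were high. By role, 4 of 7 ligands were higher, 4 of 8 Frizzled receptors were higher and 1 lower, and 3 of 3 co-receptors were higher. The counts by role include WNT7B, WNT2B and FZD8. With these genes included, the median log2 difference of the 18 was 0.76, beside 0.05 over all tested genes. These p-values set the difference between lines against how far the 2 temperatures disagree about it. Each gene leaves 1 residual degree of freedom, and limma draws its spread toward a trend over all tested genes. The p-values hold no spread between cultures.

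WNT5B (chromosome 12, 1529891 to 1647243), a ligand mainly known for signalling without beta-catenin, stood at 25.5 and 28.7 TPM in TPC-1 at 40 °C and 37 °C and at 5.63 and 7.62 TPM in B-CPAP. Both TPC-1 libraries lay above both of B-CPAP, by 1.89 ± 0.13 on the log2 scale (SE, 2 libraries per line; limma, adjusted p = 0.000341). WNT3, which acts through beta-catenin, stood at 11.4 and 9.38 TPM in TPC-1, against 3.02 and 2.23 TPM in B-CPAP, again without overlap (difference 1.66 ± 0.16; limma, adjusted p = 0.000823). The call of WNT5B was lost without the 37 °C library of TPC-1 (adjusted p = 0.0553) and that of WNT3 without its 40 °C library (adjusted p = 0.0643). WNT2B stood at 2.11 and 2.0 TPM in TPC-1, against 0.208 and 0.184 TPM in B-CPAP. The TPM ratio was 10.2 at 40 °C (counting interval 6.30 to 17.8) and 10.9 at 37 °C (6.67 to 19.4), and as a gene that passed the filter only through TPC-1 it is given no test here. Its level is uncertain, because 21.2% of its exon bases overlap ST7L on the opposite strand and the library kit does not mark strand.

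WNT5A (chromosome 3, 55465715 to 55490539), the textbook ligand of ROR receptors, was expressed in both lines. It stood at 16.4 and 14.5 TPM in TPC-1 at 40 °C and 37 °C and at 23.0 and 15.5 TPM in B-CPAP. In both B-CPAP libraries it was the highest ligand. The TPM ratio of TPC-1 to B-CPAP was 0.712 at 40 °C (counting interval 0.648 to 0.782) and 0.936 at 37 °C (0.844 to 1.04). The lines' values overlapped and the test was not passed (difference -0.28 ± 0.14; limma, adjusted p = 0.151). It was passed when libraries were centred on their median (adjusted p = 0.0303), under quantile normalization (0.0445) and after adjustment for GC content (0.0246), each time lower in TPC-1. WNT9A stood at 2.46 and 3.10 TPM in TPC-1, against 3.18 and 3.15 TPM in B-CPAP, and WNT10B at 3.39 and 3.37 TPM in TPC-1, against 2.03 and 2.89 TPM in B-CPAP. Neither passed (adjusted p = 0.557 and 0.195).

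The other 12 ligands were under 1 TPM in every library and were not tested. WNT4 reached 0.284 TPM, WNT16 0.246 TPM and WNT11 0.241 TPM, from 8, 6 and 4 reads in the highest library. WNT6, WNT7A, WNT8B, WNT9B and WNT10A rested on at most 1 read in any library. WNT1, WNT2, WNT3A and WNT8A were at 0 in all 4 libraries, where 3 reads would have been 0.0894 TPM (WNT2 in B-CPAP at 37 °C) to 0.386 TPM (WNT1 in TPC-1 at 40 °C). At this depth lower levels of these ligands were not detectable.

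Several WNT genes lie beside another one, and in 3 of the 4 pairs within 150000 bases 1 gene was expressed and its neighbour was not. The annotated bounds of WNT3 and WNT9B lie 46 bases apart on opposite strands of chromosome 17, and WNT9B was at most 0.0414 TPM where WNT3 was 2.23 TPM or more. WNT10B, at 2.03 to 3.39 TPM, lies 6689 bases from WNT1, which was at 0, and WNT9A, at 2.46 to 3.18 TPM, lies 59152 bases from WNT3A, which was at 0. In the fourth pair, WNT6 and WNT10A on chromosome 2, 6129 bases apart, neither exceeded 0.0780 TPM.

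Summed over the 19 ligands, the level was 199.9 TPM in TPC-1 at 40 °C and 229.8 TPM at 37 °C, and 37.8 and 32.3 TPM in B-CPAP. WNT7B held 69.0% and 73.2% of the sum in TPC-1 and 0.669% and 1.14% in B-CPAP. Without it the sums were 61.9 and 61.5 TPM in TPC-1, against 37.6 and 32.0 TPM in B-CPAP. WNT5A held 60.9% of the B-CPAP sum at 40 °C and 47.8% at 37 °C. The ratio of the sums, TPC-1 over B-CPAP, was 5.28 at 40 °C (counting interval 4.99 to 5.6) and 7.11 at 37 °C (6.68 to 7.56).

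**Figure D2:**
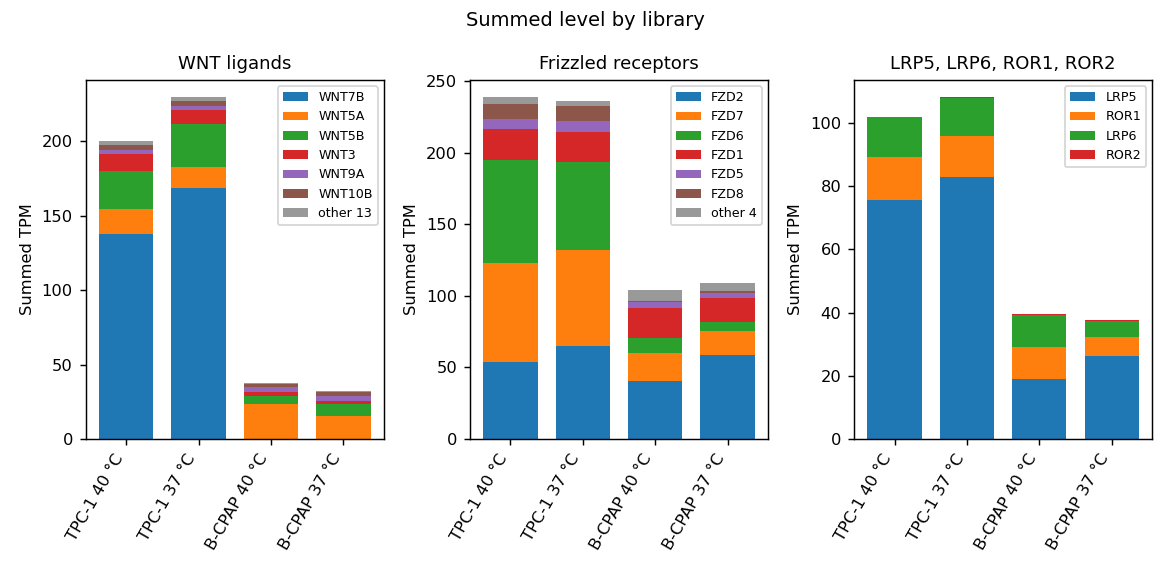
Summed TPM of WNT ligands, of Frizzled receptors and of LRP5, LRP6, ROR1 and ROR2 in each library, stacked by gene. WNT7B makes up 69.0% and 73.2% of the ligand bar in TPC-1, whereas WNT5A and WNT5B lead in B-CPAP.

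The Frizzled receptors are 7-pass membrane proteins that bind WNTs through an outer cysteine-rich domain. Their summed level was 239.0 TPM in TPC-1 at 40 °C and 236.4 TPM at 37 °C, and 104.1 and 109.3 TPM in B-CPAP, a ratio of 2.30 at 40 °C (counting interval 2.19 to 2.41) and 2.16 at 37 °C (2.06 to 2.27). In TPC-1 the sum was spread nearly evenly over FZD6, FZD7 and FZD2, whereas FZD2 led alone in B-CPAP with 38.8% at 40 °C and 53.8% at 37 °C.

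FZD6 (chromosome 8, 103298433 to 103332866), a receptor known for planar polarity of hair and skin, had the largest log2(TPM + 1) difference among receptors tested. It stood at 72.0 and 62.0 TPM in TPC-1 at 40 °C and 37 °C and at 10.5 and 6.07 TPM in B-CPAP, with no overlap (difference 2.91 ± 0.15, SE, 2 libraries per line; limma, adjusted p = 0.000151). FZD8 stood at 10.7 and 10.2 TPM in TPC-1, against 0.603 and 1.2 TPM in B-CPAP (difference 2.61 ± 0.21). It passed the filter on low values only through TPC-1 and is given no test here. As a TPM ratio FZD8 was the larger at 40 °C, at 17.7 (counting interval 10.9 to 30.9) against 6.85 (6.05 to 7.77) for FZD6, and at 37 °C the intervals of the ratios overlapped, 8.5 (5.98 to 12.4) for FZD8 and 10.2 (8.77 to 12.0) for FZD6. FZD7 (chromosome 2, 202034587 to 202038445), which transmits beta-catenin signals in stem cells and several carcinomas, stood at 69.0 and 66.5 TPM in TPC-1, against 19.4 and 16.7 TPM in B-CPAP (difference 1.85 ± 0.11; limma, adjusted p = 0.000182). FZD6 and FZD7 passed the test under each alternative that kept all 4 libraries, as did LRP5. FZD5, a receptor of gut epithelium, stood at 7.30 and 7.68 TPM in TPC-1, against 4.24 and 3.48 TPM in B-CPAP (difference 0.81 ± 0.17; limma, adjusted p = 0.0113), a call lost without either TPC-1 library (adjusted p = 0.163 and 0.176) and without B-CPAP at 37 °C (0.0656).

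FZD2 and FZD1 were high in both lines. FZD2 stood at 54.0 and 65.3 TPM in TPC-1 at 40 °C and 37 °C and at 40.4 and 58.8 TPM in B-CPAP, and FZD1 at 21.2 and 20.7 TPM in TPC-1, against 21.4 and 16.9 TPM in B-CPAP. Their ranges overlapped and neither passed (adjusted p = 0.0739 and 0.409). FZD2 did pass, higher in TPC-1, when only genes of at least 5 TPM (adjusted p = 0.0347) or only protein-coding genes (0.0277) were fitted. FZD3 was low in both, at 1.80 and 1.45 TPM in TPC-1, against 1.48 and 0.923 TPM in B-CPAP.

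FZD4, which signals in retinal vessels, was the 1 member called lower in TPC-1, at 2.95 and 2.57 TPM there and 5.40 and 3.86 TPM in B-CPAP (difference -0.57 ± 0.19; limma, adjusted p = 0.0467). The call was lost under 8 of 12 alternatives, leaving out any 1 of the 4 libraries among them (adjusted p = 0.0659 to 0.354). In addition, 18.9% of its exon bases overlap PRSS23 on the opposite strand, a gene at 62.5 and 63.5 TPM in TPC-1, against 120.7 and 103.2 TPM in B-CPAP, so that reads of the 2 genes cannot be told apart there. FZD9 was at 0 in TPC-1, against 0.734 and 1.32 TPM in B-CPAP from 12 and 23 reads, at least 3.30-fold and 6.21-fold lower in TPC-1 at 40 °C and 37 °C when 3 reads are taken as the floor of a library. FZD10 was at 0 in all 4 libraries.

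**Figure D3:**
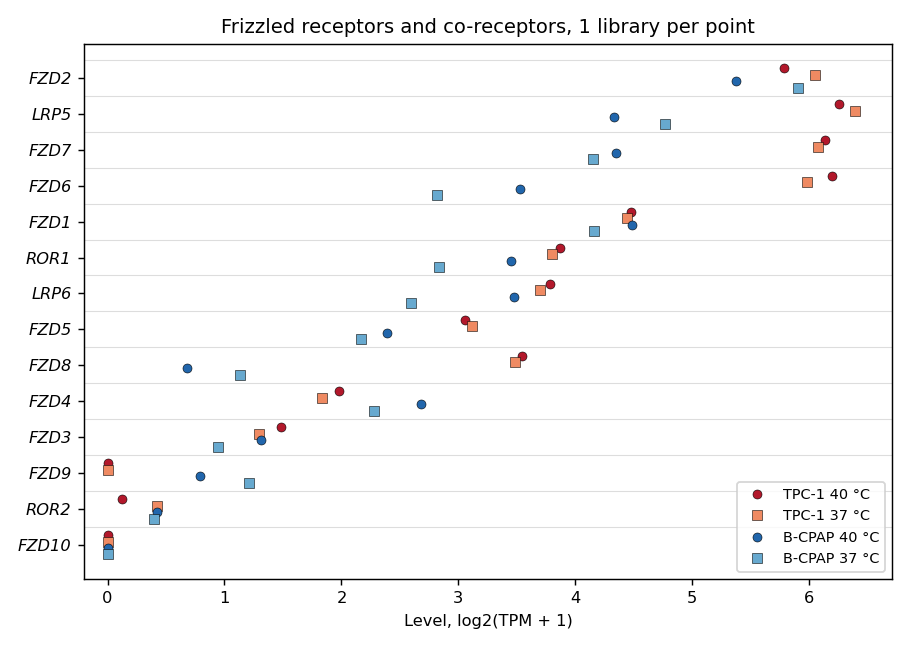
Level of each Frizzled receptor and of LRP5, LRP6, ROR1 and ROR2 as log2(TPM + 1), with 1 point per library and genes ordered by their mean. The TPC-1 points of FZD6, FZD7, FZD8 and LRP5 lie right of those of B-CPAP, whereas the points of FZD1 and FZD2 are mixed.

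The co-receptors LRP5 and LRP6 carry the beta-catenin signal with Frizzled. LRP5 (chromosome 11, 68312609 to 68449275) stood at 75.5 and 82.9 TPM in TPC-1 at 40 °C and 37 °C and at 19.1 and 26.2 TPM in B-CPAP (difference 1.78 ± 0.12, SE, 2 libraries per line; limma, adjusted p = 0.000285). LRP6 stood at 12.8 and 12.0 TPM in TPC-1, against 10.1 and 5.04 TPM in B-CPAP, and ROR1, a tyrosine kinase-like receptor of WNT5A, at 13.6 and 12.9 TPM in TPC-1, against 9.91 and 6.14 TPM in B-CPAP. Both TPC-1 libraries lay above those of B-CPAP for either gene, and both were called (limma, adjusted p = 0.0413 and 0.0223). The calls of both were lost without either TPC-1 library or without B-CPAP at 37 °C, with adjusted p of 0.204 to 0.424 for LRP6 and 0.116 to 0.34 for ROR1, and without a filter on low values (0.117 and 0.0703) or without temperature in the fit (0.127 and 0.0688). That of LRP6 was also lost at a pseudocount of 0.1 (0.0529) and under quantile normalization (0.0531). ROR2, the other receptor of the pair, stayed at 0.0883 to 0.34 TPM in the 4 libraries.

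No member was called between 40 °C and 37 °C over both lines. By limma, 0 of the 18 members and 0% of all 14912 genes passed an adjusted p of 0.05, with unadjusted p under 0.05 for 2 members, FZD2 and FZD6, and for 2905 genes in all. FZD2 was lower at 40 °C in both lines (log2 difference -0.40 ± 0.11, SE, 2 libraries per temperature; unadjusted p = 0.014, adjusted p = 0.219 by limma). FZD6 was higher in both (0.46 ± 0.15; unadjusted p = 0.0315, adjusted p = 0.236 by limma). FZD2 was called when only genes of at least 5 TPM were fitted (adjusted p = 0.0424), and both were called when only protein-coding genes were fitted (adjusted p = 0.0274 for FZD2 and 0.0445 for FZD6). No member differed 2-fold on the log2(TPM + 1) scale in either line, where 2.25% of all tested genes were 2-fold higher and 1.23% lower at 40 °C in TPC-1, and 2.78% and 1.13% in B-CPAP. Within a line the 2 libraries allow only an interval for counting error, which says nothing of the spread between cultures.

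In TPC-1 that interval lay above 1 for 3 of the 18 members and below 1 for 4, against 22.2% and 16.6% of all tested genes with reads. WNT7B had a TPM ratio of 40 °C over 37 °C of 0.820 (counting interval 0.787 to 0.855), FZD2 of 0.827 (0.746 to 0.917), WNT5B of 0.889 (0.799 to 0.991) and LRP5 of 0.910 (0.864 to 0.958). Above 1 were WNT3 at 1.22 (1.02 to 1.44), FZD6 at 1.16 (1.08 to 1.24) and WNT5A at 1.13 (1.02 to 1.26). These ratios lie close to 1, and the intervals of the other 11 members included 1.

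In B-CPAP it lay above 1 for 8 members and below 1 for 4, against 37% and 22.2% of all tested genes with reads. LRP6 had the highest ratio, 2.01 (counting interval 1.78 to 2.28), against 1.07 (0.965 to 1.18) in TPC-1. FZD6 followed at 1.73 (1.44 to 2.09), ROR1 at 1.61 (1.39 to 1.87), FZD3 at 1.61 (1.23 to 2.10) and WNT5A at 1.49 (1.36 to 1.63). The ratios of FZD4, FZD1 and FZD7 were 1.40, 1.27 and 1.16. On the lower side stood FZD8 at 0.504 (0.265 to 0.920, from 17 and 36 reads), FZD2 at 0.687 (0.619 to 0.762), LRP5 at 0.728 (0.666 to 0.797) and WNT5B at 0.739 (0.605 to 0.904). The low level of WNT7B gave 0.686 with an interval that included 1 (0.262 to 1.70). The LRP6 level of B-CPAP at 40 °C thus came nearer to that of TPC-1, with a TPC-1 to B-CPAP ratio of 1.26 at 40 °C (1.14 to 1.40) and 2.38 at 37 °C (2.10 to 2.69). Whether a member's difference between temperatures itself differs between lines was not tested, since each line has 1 library per temperature.

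**Figure D4:**
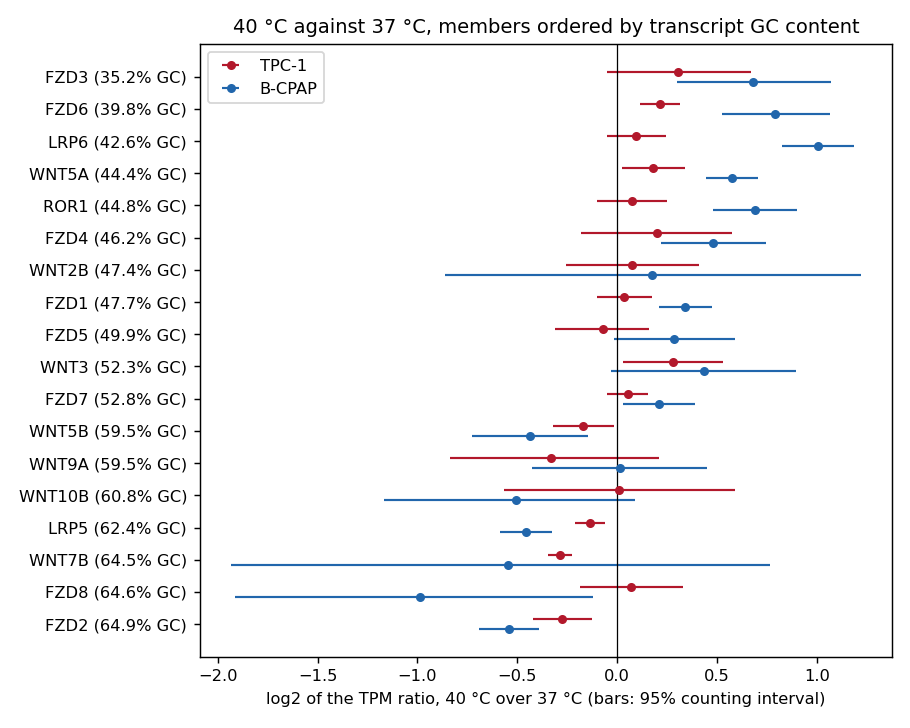
TPM ratio of 40 °C over 37 °C as log2, with 95% counting intervals, for the 18 tested members in TPC-1 and B-CPAP, ordered by the GC content of their transcripts from the lowest at the top. Points on the right of 0 gather at the top and points on the left at the bottom.

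Direction went with base composition in both lines. All 9 members with a transcript GC content under 50% (35.2 to 49.9%) were higher at 40 °C in B-CPAP and 8 of them in TPC-1, beside 90.9% and 75.6% of the 6239 tested protein-coding genes under 50%. Of the 9 members from 52.3 to 64.9%, 3 were higher in B-CPAP and 4 in TPC-1, beside 22.5% and 28.2% of 5580 genes. Across the 18 members, which share the same 2 libraries in each line, Spearman's rho between GC content and the log2 difference was -0.75 (TPC-1) and -0.92 (B-CPAP), and across the 11819 protein-coding genes it was -0.60 and -0.82. After adjustment of the values for GC content the members' rho was 0.00103 and -0.30. The log2 difference of WNT7B in TPC-1 was -0.28 before and -0.13 after the adjustment. LRP6 in B-CPAP was at 0.88 before and 0.49 after it, ROR1 at 0.61 and 0.31, WNT5A at 0.55 and 0.23, FZD6 at 0.70 and 0.18 and FZD2 at -0.53 and -0.22. The sign turned for 6 of the 18 members in TPC-1 (FZD1, FZD3, LRP5, LRP6, ROR1 and WNT2B) and for 3 in B-CPAP (FZD3, WNT2B and WNT7B). Only FZD3 in B-CPAP (0.37 before and -0.38 after) and LRP5 in TPC-1 (-0.13 and 0.00607) had a counting interval that excluded 1 before it. Of the 9 members under 50% GC, 3 were higher at 40 °C in TPC-1 after the adjustment and 7 in B-CPAP. The median over the 18 members was 0.05 (TPC-1) and 0.21 (B-CPAP) before the adjustment, beside 0.03 and 0.09 over all tested genes, and -0.02 and 0.15 after it.

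Other genes of the pathway were taken from 8 lists of 95 genes, of which 73 were tested, and some stand on more than 1 list. Between the lines limma called 35 of them higher and 20 lower in TPC-1, with 18 not passed, beside 32.8% higher and 29.9% lower of all tested genes. Over both lines it called 0 between temperatures, with an unadjusted p under 0.05 for 9 of the 73, beside 2905 of all 14912. Of the 73, 16 passed the filter on low values through 1 line only, 8 through each, and their differences between lines were part of that choice. Those through TPC-1 were ADGRA2, AXIN2, DKKL1, LEF1, LGR5, PRICKLE1, TLE4 and VANGL2. Those through B-CPAP were CELSR3, DAAM2, FRZB, GPC4, NFATC2, RSPO4, SFRP1 and TRABD2A. No p-value between the lines is given for these 16 genes.

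On the list of ligand secretion and release, 3 of 3 tested genes were called lower in TPC-1, beside 29.9% of all tested genes. Their median log2 difference was -1.96, the value of PORCN. Only PORCN and WLS serve the making and release of WNT proteins. PORCN, the enzyme that attaches the lipid, stood at 17.1 and 16.5 TPM in TPC-1 at 40 °C and 37 °C and at 63.6 and 73.8 TPM in B-CPAP (limma, adjusted p = 0.00021). WLS, which carries WNTs to the cell surface, stood at 36.5 and 41.7 TPM in TPC-1, against 82.0 and 84.1 TPM in B-CPAP (adjusted p = 0.000653, and 0.0584 without TPC-1 at 40 °C). TRABD2A, a membrane protease that cleaves WNTs, was at 0.197 and 0.0943 TPM in TPC-1, against 8.25 and 5.87 TPM in B-CPAP. It passed the filter on low values only through B-CPAP, so its place among the 3 calls was part of that choice. PORCN and WLS were present in both lines, at a lower level in the line with WNT7B.

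Of 5 tested genes on the list of secreted antagonists, 4 were called lower and 1 higher in TPC-1 (median -3.03, or -3.51 with SFRP1 at its bound). Whether each of them, DKKL1 included, acts as a WNT antagonist was not tested. Of all tested genes 29.9% were called lower and 32.8% higher. FRZB and SFRP1 passed the filter on low values only through B-CPAP, and DKKL1 only through TPC-1. The medians given are the values of SFRP1 and FRZB, so they rest on that choice. DKK1, which blocks LRP5 and LRP6, stood at 2.34 and 2.16 TPM in TPC-1, against 99.8 and 74.0 TPM in B-CPAP (difference -4.74 ± 0.14; limma, adjusted p = 4.06e-05). DKK3 stood at 124.1 and 125.6 TPM in TPC-1, against 454.5 and 458.4 TPM in B-CPAP. FRZB, a decoy that binds WNTs, was at 0.0656 and 0 TPM in TPC-1, against 11.2 and 10.4 TPM in B-CPAP. SFRP1, of the same family, was at 0 in TPC-1, against 7.31 and 7.02 TPM in B-CPAP, at least 67-fold and 67.4-fold lower in TPC-1 against a floor of 3 reads per library. DKKL1, the gene called higher, stood at 3.44 and 1.25 TPM in TPC-1, against 0.978 and 0.367 TPM in B-CPAP.

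Among R-spondins, which amplify WNT signals, and their receptors, 2 of 4 tested genes were called higher and 1 lower in TPC-1. Of all tested genes 32.8% were called higher and 29.9% lower. The median was 0.69, with RSPO4 at its fitted value or at its bound. LGR5 passed the filter on low values only through TPC-1 and RSPO4 only through B-CPAP, so their calls were part of that choice. LGR5, a stem cell receptor and WNT target, stood at 25.6 and 26.2 TPM in TPC-1, against 0.903 and 1.0 TPM in B-CPAP (difference 3.78 ± 0.15). LGR4 stood at 36.7 and 29.1 TPM in TPC-1, against 17.5 and 9.95 TPM in B-CPAP (limma, adjusted p = 0.00166). The call of LGR4 was lost without either TPC-1 library or without B-CPAP at 37 °C. RSPO4, a ligand of LGR receptors, was at 0 in TPC-1, against 24.4 and 30.4 TPM in B-CPAP, at least 127.2-fold and 166.2-fold lower in TPC-1. ZNRF3, which removes Frizzled from the membrane, stood at 9.66 to 11.4 TPM in the 4 libraries and did not pass (adjusted p = 0.389).

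Of 9 other WNT receptors and helpers tested, 3 were called higher and 2 lower in TPC-1 (median 0.03). Of all tested genes 32.8% were called higher and 29.9% lower. GPC4, called lower, passed the filter on low values only through B-CPAP. ADGRA2 forms with RECK the receptor complex specific for WNT7 proteins. ADGRA2 stood at 1.35 and 2.08 TPM in TPC-1, against 0.466 and 0.342 TPM in B-CPAP. It passed the filter on low values only through TPC-1. Its call was lost without that filter, after adjustment for GC content and without either B-CPAP library. RECK stood at 7.09 and 6.68 TPM in TPC-1, against 6.75 and 3.71 TPM in B-CPAP and did not pass (limma, adjusted p = 0.171). The glypican gene GPC4 was at 0.0349 and 0 TPM in TPC-1, against 26.4 and 25.2 TPM in B-CPAP, and LRP4, which modulates WNT antagonists, at 7.97 and 7.98 TPM in TPC-1, against 37.3 and 36.3 TPM in B-CPAP. KREMEN1, a DKK1 receptor, was higher in TPC-1 (22.4 and 23.4 TPM against 10.6 and 11.0 TPM; adjusted p = 0.00157), a call lost without either TPC-1 library (0.0947 and 0.104).

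**Figure D5:**
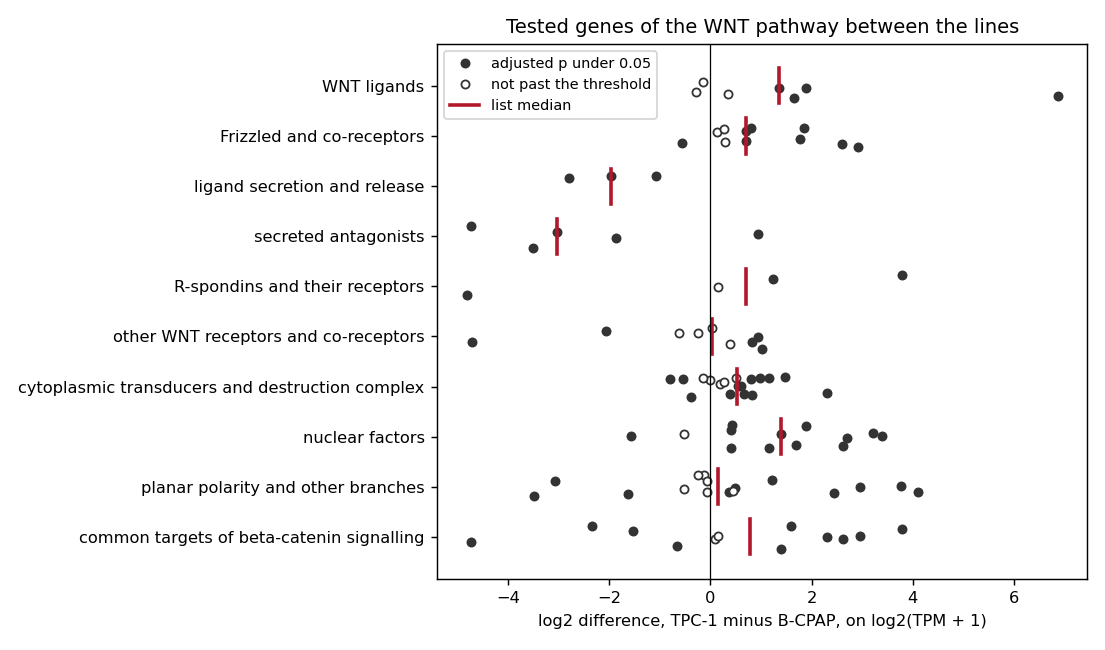
Log2 difference of TPC-1 minus B-CPAP for each tested gene of 10 groups, with filled points past an adjusted p of 0.05 and a bar at the median. The medians of the secretion genes (-1.96) and the secreted antagonists (-3.03) lie left of 0. Those of the WNT ligands (1.35) and nuclear factors (1.40) lie right of it. Some points are genes that passed the filter on low values through 1 line only. Among them are SFRP1 and WNT2B, whose values are the medians of the antagonists and the ligands.

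Of 18 cytoplasmic transducers and destruction complex genes, 10 were called higher and 3 lower in TPC-1 (median 0.53). Of all tested genes 32.8% were called higher and 29.9% lower. AXIN2, among the 10, passed the filter on low values only through TPC-1. AXIN2, a scaffold and the standard target of beta-catenin, stood at 7.68 and 6.23 TPM in TPC-1, against 0.547 and 0.641 TPM in B-CPAP (difference 2.31 ± 0.21). The tankyrase genes TNKS2 and TNKS, whose products mark axin for degradation, and BTRC, which tags beta-catenin, were higher in TPC-1 by 1.48, 1.15 and 0.98 on the log2 scale (limma, adjusted p = 0.000572, 0.00162 and 0.00175), with all 3 calls lost without either TPC-1 library (0.0701 to 0.125). Of 13 nuclear factors, 11 were called higher and 1 lower in TPC-1 (median 1.40), beside the same shares of all tested genes. LEF1 and TLE4, among the 11, passed the filter on low values only through TPC-1. LEF1, a partner of beta-catenin, stood at 5.20 and 5.09 TPM in TPC-1, against 0 in B-CPAP, at least 65.0-fold and 67.9-fold higher in TPC-1. CTNNBIP1, an inhibitor of beta-catenin, stood at 113.1 and 125.2 TPM in TPC-1, against 10.1 and 10.6 TPM in B-CPAP. The corepressor genes TLE4 and TLE2 were also higher in TPC-1, at 12.7 and 12.8 TPM against 0.681 and 0.295 TPM in B-CPAP for TLE4, and at 16.3 and 17.8 TPM against 1.83 and 1.74 TPM for TLE2. The corepressor TLE1 was the factor called lower (17.1 and 16.9 TPM in TPC-1 against 51.4 and 53.7 TPM in B-CPAP), named after its values were seen.

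Of 16 genes of planar polarity and other branches, 7 were called higher and 3 lower in TPC-1 (median 0.15), a share close to the 62.7% called among all tested genes. The core polarity genes VANGL2 and VANGL1 were higher in TPC-1. VANGL2 stood at 17.2 and 18.7 TPM in TPC-1, against 0.160 and 0.0501 TPM in B-CPAP. VANGL1 stood at 32.8 and 33.4 TPM in TPC-1, against 1.5 and 1.53 TPM in B-CPAP (limma, adjusted p = 6.54e-05). The polarity cadherin CELSR3 and the calcium-regulated factor NFATC2 were lower in TPC-1. CELSR3 stood at 0.600 and 0.346 TPM in TPC-1, against 14.4 and 16.7 TPM in B-CPAP. NFATC2 stood at 0.0836 and 0.0599 TPM in TPC-1, against 9.02 and 7.16 TPM in B-CPAP. VANGL2 passed the filter on low values only through TPC-1, and CELSR3 and NFATC2 only through B-CPAP.

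Common targets of beta-catenin went both ways, with 6 of 12 tested called higher and 4 lower in TPC-1 (median 0.77). Of all tested genes 32.8% were called higher and 29.9% lower. Beside LGR5, LEF1 and AXIN2, PRICKLE1 was higher (10.1 and 10.1 TPM in TPC-1 against 0.487 and 0.391 TPM in B-CPAP). Each of these targets passed the filter on low values only through TPC-1. The other targets called higher, CD44 and TCF7, are named after their values were seen. CD44 stood at 886.8 and 908.4 TPM in TPC-1, against 298.0 and 295.8 TPM in B-CPAP (limma, adjusted p = 6.82e-05). TCF7 stood at 11.6 and 12.0 TPM in TPC-1, against 4.19 and 3.53 TPM in B-CPAP (limma, adjusted p = 0.00137). DKK1 was the target lowest in TPC-1 relative to B-CPAP. The cell cycle gene CCND1 (235.3 and 231.0 TPM in TPC-1, against 397.5 and 340.1 TPM in B-CPAP) and BAMBI (1.21 and 1.31 TPM in TPC-1, against 9.96 and 11.0 TPM in B-CPAP) were also called lower in TPC-1 (limma, adjusted p = 0.00172 and 0.000384). MYC, named after its values were seen, did not pass (adjusted p = 0.412).

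Between temperatures, the pathway genes described are those with like-signed differences in the 2 lines. APC, the scaffold of the destruction complex, had a TPM ratio of 1.14 (counting interval 1.01 to 1.29) in TPC-1 and 2.46 (2.14 to 2.84) in B-CPAP. The casein kinase gene CSNK1G3 had 1.22 (1.06 to 1.41) and 1.80 (1.56 to 2.08), TNKS2 had 1.17 (1.09 to 1.26) and 1.47 (1.31 to 1.65), and LGR4 had 1.26 (1.16 to 1.37) and 1.76 (1.57 to 1.98). RECK had 1.06 (0.884 to 1.27) and 1.82 (1.5 to 2.22). Lower at 40 °C were the coactivator gene BCL9L (0.895 and 0.789) and the polarity gene SCRIB (0.888 and 0.753). The first 5 genes have transcript GC contents of 38.6 to 44.6% and the last 2 of 63.6 and 66.6%. DKKL1 went the other way, with a GC content of 61.4% and ratios of 2.76 (1.34 to 6.12, from 29 and 11 reads) in TPC-1 and 2.67 (0.769 to 11.6, from 10 and 4 reads) in B-CPAP. After adjustment for GC content the log2 difference of APC was -0.02 (TPC-1) and 0.60 (B-CPAP), that of LGR4 0.17 and 0.36, that of RECK -0.04 and 0.41 and that of DKKL1 1.12 and 0.79. The others came near 0, with 0.03 and 0.19 for CSNK1G3, 0.07 and 0.12 for TNKS2, -0.01 and -0.04 for BCL9L, and -0.01 and -0.07 for SCRIB.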

How the data were processed

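The authors deposited a table of TPM per Ensembl gene ID with 1 column per library. Per the labels' protocols, extraction used RNeasy Plus and library preparation TruSeq RNA Library Prep Kit v2, which keeps no strand. FastQC, MultiQC, Trimmomatic 0.38, featureCounts 2.0.0 and GRCh38 are named in the submitters' processing notes, while no aligner or annotation release is named in the sources used here. GENCODE 29 held 58611 of the 58884 IDs and gave coordinates, exon lengths and GC content.

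Estimated reads are TPM times exon length over the value of 1 read in that library. Of values up to 20 reads, 90.6 to 92.1% were whole within 0.02, but only 36 of the 93 values of members above 0, with gaps to a whole number of up to 16.8% of it, so members' reads are estimates. From them come 95% intervals of TPM ratios (exact Clopper-Pearson) and a floor of 3 reads. Intervals of summed levels use a normal approximation on the log scale. All cover counting error only, and no count model was fitted.

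The scale was log2(TPM + 1), which understates changes of low genes, for 14912 genes with a mean of at least 1 TPM. limma 3.58.1 (R 4.3.3) with an intensity trend compared TPC-1 with B-CPAP with temperature as a block, and 40 °C with 37 °C with the line as a block, two-sided, with Benjamini-Hochberg adjustment over all tested genes. The fit was tested on simulated data. Nothing in the labels says that libraries came from separate cultures. The GC adjustment took a spline on transcript GC content, fitted to protein-coding genes, off each library. Named genes were all members and, of each pathway list, up to 4 by the difference between lines and up to 3 by like-signed differences between temperatures. Not all of these are described. Members and lists were chosen with earlier results of these data known.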

Additional observations from a re-analysis of the deposited data

Results flagged for a closer look

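CELSR3, a polarity cadherin gene, went opposite ways at 40 °C in the 2 lines, with counting intervals that excluded 1 in both. Its TPM ratio of 40 °C over 37 °C was 1.73 in TPC-1 (interval 1.07 to 2.85), where its level was 0.600 and 0.346 TPM, and 0.865 in B-CPAP (0.805 to 0.929), where it was 14.4 and 16.7 TPM. The difference between the lines was not tested, since each had 1 library per temperature. After adjustment for GC content both log2 differences were above 0, at 0.37 in TPC-1 and 0.04 in B-CPAP. No member of the WNT ligands and receptors met this description.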

How the results depend on the processing

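The 13 alternatives for the comparison of lines were pseudocounts of 0.1 and 5, no filter, at least 5 TPM, protein-coding genes only, centring on the median, quantile normalization, adjustment for GC content, no block, and leaving out each of the 4 libraries. Of all tested genes 9349 were called between lines, and 2911 to 5719 when 1 library was left out with no block. Of members 12 were called, and 7 to 11 then, a lone library being taken to vary like the others. No member called between lines changed direction under any of them. Centring moved the median log2 difference of all genes from 0.05 to -0.08 between lines, and from 0.09 to -0.10 between temperatures in B-CPAP. It moved the share of calls from 4892 higher and 4457 lower in TPC-1 to 4417 and 5285. Between temperatures over both lines limma called 0 genes, but 2 at a pseudocount of 5, 867 at 5 TPM or more, 1350 among protein-coding genes and 49 after centring, of which 0, 1 (FZD2), 2 (FZD2 and FZD6) and 0 were members. Genes 2-fold apart numbered 519 in TPC-1 and 582 in B-CPAP. They numbered 987 and 1246 at a pseudocount of 0.1, 89 and 82 at 5, 1291 and 1143 without a filter, 63 and 175 at 5 TPM or more, and 18 and 137 among protein-coding genes. Of the 582 in B-CPAP, 414 were higher and 168 lower at 40 °C, beside 243 and 231 after centring, 286 and 248 under quantile normalization and 203 and 207 after adjustment for GC content. Where a counting interval excluded 1, that adjustment turned the sign of LRP5 in TPC-1 (0.00607), FZD3 in B-CPAP (-0.38), APC in TPC-1 (-0.0163), and DAAM1 (-0.0756), PYGO1 (-0.13) and RYK (-0.11) in B-CPAP. Without mitochondrially encoded genes the ratio of summed ligands at 37 °C was 6.66 and that of summed Frizzled receptors 2.18 at 40 °C and 2.03 at 37 °C. The cause of these shifts was not tested. The 12 ligands under 1 TPM in every library rested on at most 8 reads each in any 1 library.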
